A study of Mus musculus with 24 samples.

Results

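Lineage genes of myeloid cells, mast cells and basophils were described across 7 mouse cell lines. They are 55 genes chosen by name for their known part in these blood lineages, and their probes were found through the RefSeq transcript that each probe of the array is listed for. Of the 55 genes, 54 had a probe, among 45547 gene names on the array, and Ly6g had none. RNA of cultured cells was hybridised on 24 single-colour arrays, 7 of them of myeloid lines and 17 of melanoma lines. The myeloid lines are named M0 (4 arrays) and J365 (3 arrays), and nothing in the labels ties either name to a particular leukemia line of the study. The melanoma lines descend from B16F1, a mouse melanoma line, and all carry green fluorescent protein. They are M, the parental line (3 arrays), D, recovered from mice after long dormancy under immunotherapy (4 arrays), and DB#1 (4 arrays), DB#2 (3 arrays) and DB#3 (3 arrays), a subsequent generation isolated from the brain. All of the lines were expanded in culture before RNA was extracted, and the labels name no agent added in culture. The labels do not say that arrays of a line came from separate cultures, so the p-values measure the spread between arrays, which may be technical.

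Blood lineages are set by small groups of transcription factors: PU.1 (Spi1) and C/EBP proteins drive granulocytes and monocytes, whereas GATA1 and GATA2 act in mast cells, basophils, eosinophils, megakaryocytes and red cells. Mast cells and basophils arm themselves with IgE bound to a receptor made of an IgE-binding chain (Fcer1a), an amplifying chain (Ms4a2) and a pair of signalling chains (Fcer1g), and they store histamine and proteases in granules. Neutrophil precursors fill granules with myeloperoxidase and elastase, and CD200 receptors on myeloid cells pass inhibitory or activating signals.

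Signals are given as normalized log2 signal, that is, log2 intensity after subtraction of the array's 75th percentile, so that 0 is the level below which 75% of the probes of the array lie and a difference of 1 is a 2-fold difference. A probe was counted as read on an array where the scanner software marked it well above background. The share of probes read was 43.6% to 53.8% on 23 arrays and 89.9% on D replicate 3. Of the 54 genes, 38 to 42 were read on each myeloid array and 15 to 20 on each melanoma array other than D replicate 3, where 48 were read. On that array 24 of the genes were read that were read on no other melanoma array. Many results that it enters are given without it too, but some differences between myeloid and melanoma lines are given with it only. All myeloid labels carry the mark p20, which no melanoma label carries. In each myeloid line 1 array has no replicate number in its label and is called replicate 4 here. On those arrays several of the genes stood apart in both lines, as given below. Melanocyte markers, 12 genes such as Tyr and Dct, had mean signals between -5.26 and -4.95 in myeloid RNA and between 4.78 and 5.60 in melanoma RNA, and 11 of them were read on every melanoma array. Tyr, Sox10 and Slc24a5 were the melanocyte markers read on every myeloid array.

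**Figure D1:**
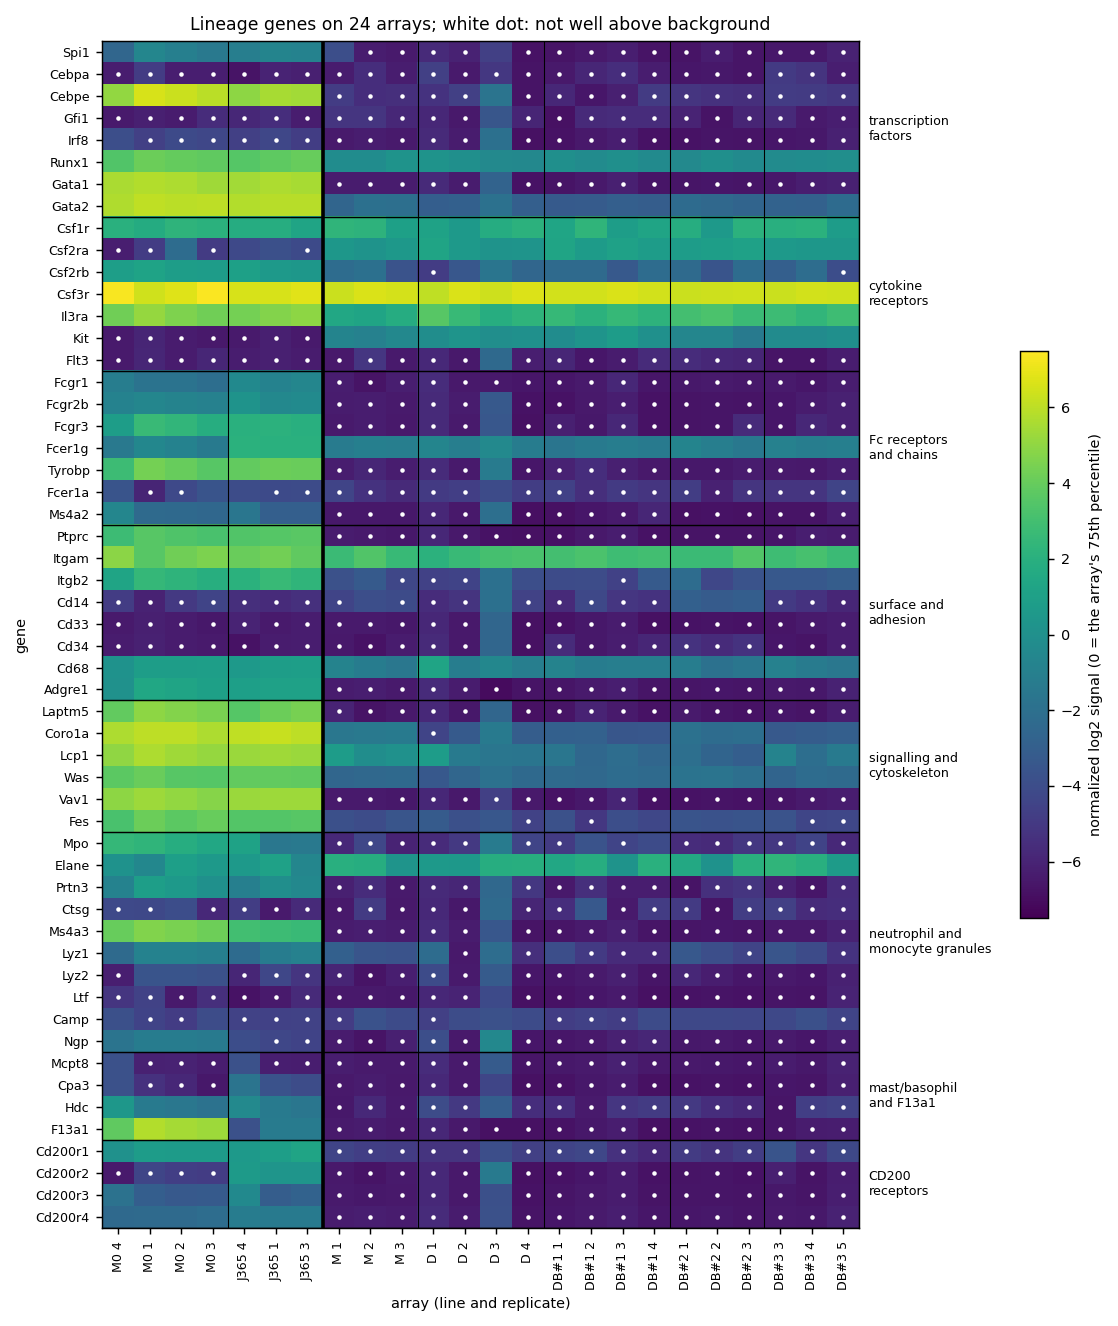
Normalized log2 signal of the 54 lineage genes (vertical axis, grouped by role) on the 24 arrays (horizontal axis, grouped by line), with a white dot where the probe was not well above background. The 7 myeloid arrays, left of the thick line, carry most of the bright cells, and D replicate 3 is the melanoma array with the fewest dots, with 48 of 54 genes read.

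Which lineage genes set J365 apart from M0 was asked first. Of the 39 genes that could be tested, 3 were higher in J365 and 1 was lower at an adjusted p under 0.05 (limma, Benjamini-Hochberg over all 20660 genes tested), against a background of 1.47% of all genes called (0.721% higher and 0.745% lower). F13a1, the catalytic subunit of coagulation factor XIII, was 144-fold lower in J365, and 80.7-fold lower without J365 replicate 4. Fcer1g, the signalling chain shared by the IgE receptor and several IgG receptors, was 8.51-fold higher, and Fcgr1, the high-affinity IgG receptor, was 2.11-fold higher. Cd200r2, a relative of the CD200 receptor, was at least 22.7-fold higher. The other 35 genes did not pass the test, and 15 of the 54 could not be tested because neither line read them on all of its arrays. Cd200r2 and Cpa3 entered the test through J365 alone, and Ngp through M0 alone. For these genes the filter favoured a difference, so their p-values are a description. The median difference over the 39 genes was 0.08 on the log2 scale, beside 0.02 over all genes tested. In these bulk samples fewer cells of a type and less RNA per cell cannot be told apart.

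D replicate 3 belongs to neither line compared, but it enters the spread that the model shares between lines. Without it 9 of the 39 passed, 5 of them higher in J365 and 4 lower, with 2.5% of all genes called. The 5 genes added were Mpo, Ms4a3 and Ngp, lower in J365, and Cpa3 and Cd200r4, higher in J365. Their differences between J365 and M0 are the same with and without that array, since it enters only the error. With the 7 myeloid arrays alone 6 genes were called, F13a1, Fcer1g, Cd200r2, Ms4a3, Ngp and Cd200r4. The arrays of the lines did not overlap in 9 of the 39 genes, beside 8.49% of all 20660 genes tested. They were F13a1, Fcer1g, Fcgr1, Cd200r2, Cd200r4, Mpo, Ms4a3, Ngp and Fcgr2b.

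**Figure D2:**
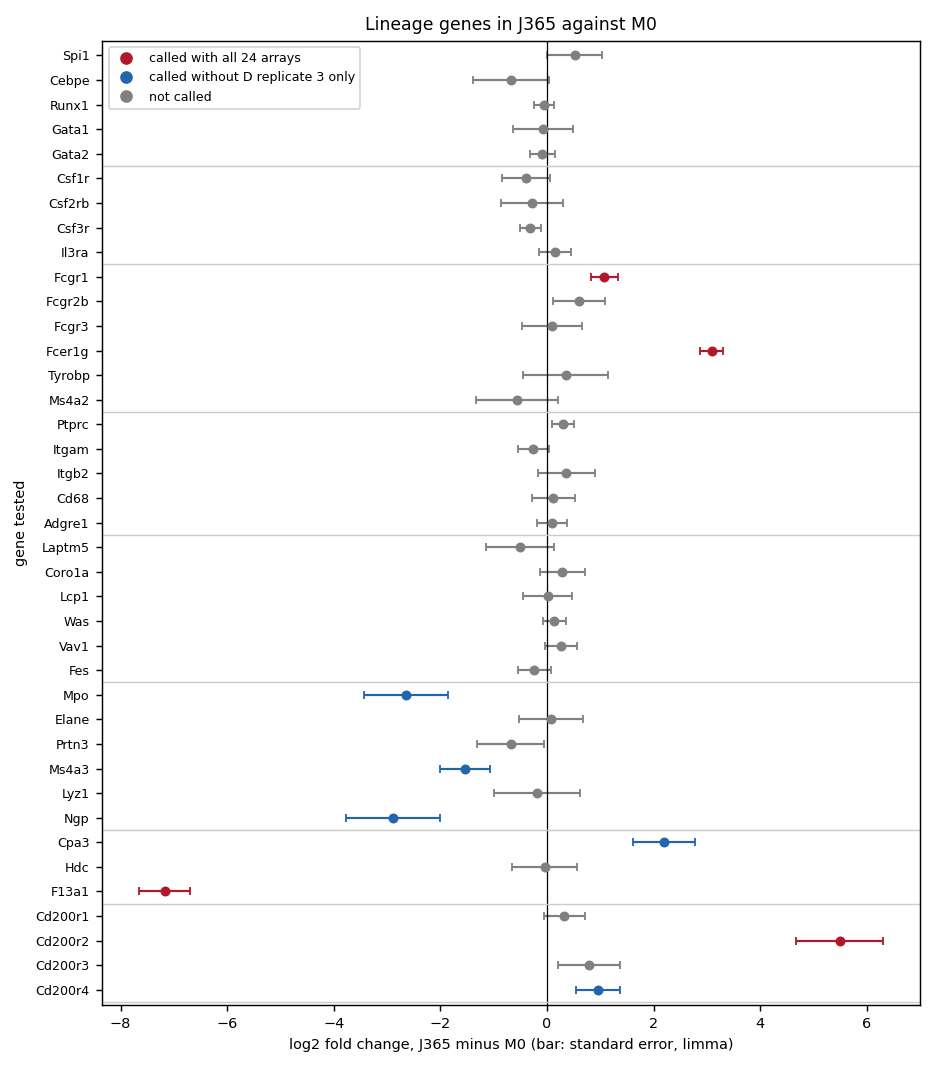
Log2 fold change of the 39 tested genes in J365 minus M0 (horizontal axis), with the standard error of the limma model as bars, in the order of the roles used in the text. F13a1 at -7.17 and Cd200r2 at 5.49 lie farthest from 0, and blue marks the 5 genes that were called only when D replicate 3 was left out.

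The 300 bases around the transcript starts of the 4 called genes are shown so that a reader can compare the stretches from which they are read. They run from 250 bases before the start to 50 bases after it on the strand of the gene, and come from RefSeq on assembly GRCm38.p6. Capitals mark AGGAAGT or its reverse complement ACTTCCT, the core of a PU.1-type site, the motif searched on both strands.
Fcer1g, chr1:171234300-171234599, minus strand: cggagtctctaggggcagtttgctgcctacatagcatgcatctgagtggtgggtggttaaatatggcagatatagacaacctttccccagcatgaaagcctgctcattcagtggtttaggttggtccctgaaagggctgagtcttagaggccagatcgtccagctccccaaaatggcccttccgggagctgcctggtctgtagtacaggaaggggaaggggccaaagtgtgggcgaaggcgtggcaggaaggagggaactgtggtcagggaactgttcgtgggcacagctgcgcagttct
Fcgr1, chr3:96293920-96294219, minus strand: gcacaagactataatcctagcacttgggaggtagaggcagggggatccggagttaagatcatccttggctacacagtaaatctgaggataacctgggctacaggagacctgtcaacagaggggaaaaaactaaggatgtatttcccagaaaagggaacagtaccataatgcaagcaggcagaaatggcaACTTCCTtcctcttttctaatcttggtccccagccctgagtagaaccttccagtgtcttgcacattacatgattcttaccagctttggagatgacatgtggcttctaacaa
F13a1, chr13:37049164-37049463, minus strand: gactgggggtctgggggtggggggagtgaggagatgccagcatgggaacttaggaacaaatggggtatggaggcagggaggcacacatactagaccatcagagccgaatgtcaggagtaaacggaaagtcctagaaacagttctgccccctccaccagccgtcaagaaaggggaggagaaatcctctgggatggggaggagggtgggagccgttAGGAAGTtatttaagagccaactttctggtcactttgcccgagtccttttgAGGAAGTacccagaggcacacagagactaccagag
Cd200r2, chr16:44866847-44867146, plus strand: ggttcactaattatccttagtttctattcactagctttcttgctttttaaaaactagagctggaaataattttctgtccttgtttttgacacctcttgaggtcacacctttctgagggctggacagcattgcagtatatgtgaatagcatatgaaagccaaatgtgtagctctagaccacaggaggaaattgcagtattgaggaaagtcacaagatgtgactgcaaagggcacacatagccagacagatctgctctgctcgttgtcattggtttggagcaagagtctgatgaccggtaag

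The Fcgr1 promoter held the motif once on the opposite strand, 61 bases before the start. The F13a1 promoter shown held it at 36 bases before the start and again 15 bases after it, and a second F13a1 start in the table (chr13:37050195-37050494) held none. No match was found in the Fcer1g and Cd200r2 stretches. The motif was in 9.35% of the 32851 promoters in the table and in 23.6% of the 55 promoters of the lineage genes, which stand for 45 of them. The 12 genes that held it were Ctsg, Elane, F13a1, Fcgr1, Il3ra, Lyz1, Lyz2, Mpo, Prtn3, Ptprc, Vav1 and Was. A GATA motif (AGATAA or TGATAA, both strands) was in 18.6% of all promoters and in 14.5% of those of the lineage genes, and the C/EBP motif TTGCGCAA was in 0.183% of all and in 0 of the 55. The letters are a description of these stretches and were not tested against the signals.

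Of the 5 transcription factors tested 0 were called between the myeloid lines in either direction, and their median difference was -0.07. Gata1, which directs mast, eosinophil, megakaryocyte and red cell programmes, had 5.78, 5.66, 5.36 and 5.61 on M0 replicates 1 to 4 and 5.66, 5.51 and 5.42 on J365 replicates 1, 3 and 4. Gata2, which acts in blood stem cells and mast cells, had 6.07, 5.93, 5.99 and 5.73 in M0 and 5.88, 5.88 and 5.77 in J365. For both GATA factors the arrays of the lines overlapped, with differences of -0.07 ± 0.56 (SE) for Gata1 and -0.09 ± 0.23 for Gata2. Runx1, needed for the first blood stem cells, differed by -0.05 ± 0.19. Spi1, which encodes PU.1, differed by 0.52 ± 0.52, and Cebpe, the C/EBP protein of late granulocytes, by -0.67 ± 0.71. Cebpa, the C/EBP protein of early myeloid progenitors, was read on none of the 24 arrays, and Gfi1, a repressor that favours neutrophils, on no myeloid array. Irf8, a monocyte and dendritic cell factor, was read on 1 of the 7 myeloid arrays.

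None of the 4 growth factor and cytokine receptors tested was called between the myeloid lines. They were Csf1r, the macrophage colony-stimulating factor receptor, Csf3r, the granulocyte colony-stimulating factor receptor, Il3ra, the binding chain for interleukin-3, and Csf2rb, the chain that it shares with the receptors for GM-CSF and interleukin-5. Their differences lay between -0.39 and 0.15. Kit, the stem cell factor receptor on which tissue mast cells depend, was read on 0 of the 7 myeloid arrays, with signals of -5.94, -6.38, -6.49 and -6.39 in M0 and -6.20, -6.43 and -6.41 in J365. Flt3, a receptor of early progenitors, was read on none of them either. Csf2ra, the GM-CSF binding chain, was read on 3 of the 7.

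The Fc receptors and their chains held 2 of the 4 called genes, both higher in J365, among 6 tested. Fcer1g had -0.56, -0.83, -1.39 and -1.42 on M0 replicates 1 to 4 and 2.01, 2.04 and 2.06 on J365 replicates 1, 3 and 4. The J365 arrays lay close together, and all of them were above every M0 array. The difference was 3.09 ± 0.22 (SE), with an adjusted p of 8.77e-09. Within the slides it was 2.60, 3.47 and 2.84. On the melanoma arrays Fcer1g had -1.68 to -0.44, the range in which the M0 arrays lay too, and it was read on every array of the study.

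Fcgr1 had -1.77, -1.80, -2.08 and -1.14 in M0 and -0.84, -0.64 and -0.39 in J365, without overlap. The difference was 1.08 ± 0.25, with an adjusted p of 0.0262 by limma. The call was lost without M0 replicate 1 (0.0647), replicate 2 (0.0804) or replicate 3 (0.113), without J365 replicate 3 (0.0917) or replicate 4 (0.185), with the 7 myeloid arrays alone (0.141) and with no filter on dim probes (0.0750), while the difference stayed between 0.95 and 1.26 with each array left out. Fcgr2b, the inhibitory IgG receptor, differed by 0.60 ± 0.49 and Fcgr3, a low-affinity IgG receptor, by 0.09 ± 0.56, and neither was called. Tyrobp, the DAP12 signalling chain, differed by 0.35 ± 0.80 and was not called.

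The chains that make the IgE receptor with Fcer1g were not called. Fcer1a was read on 2 M0 arrays and 1 J365 array, with signals of -5.96, -4.16, -3.60 and -3.60 in M0 and -4.13, -4.06 and -4.02 in J365, and could not be tested. Ms4a2 had -2.30, -2.38, -2.52 and -0.61 in M0 and -2.96, -2.96 and -1.61 in J365. In both lines replicate 4 was the highest array for Ms4a2. The difference between the lines was -0.56 ± 0.76, with an adjusted p of 0.988, and a second Ms4a2 probe was read on no array.

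Genes of the leukocyte surface, of adhesion, of signalling and of the cytoskeleton gave no call between the myeloid lines. Of the 5 surface and adhesion genes tested 0 were called, and of the 6 signalling and cytoskeleton genes 0 were called. The first were Ptprc (CD45, the pan-leukocyte phosphatase), Itgam and Itgb2 (the chains of the integrin CD11b/CD18), Cd68 (a lysosomal protein of macrophages) and Adgre1 (a macrophage surface receptor), with differences between -0.25 and 0.36. The second were Laptm5, Coro1a, Lcp1, Was, Vav1 and Fes, with differences between -0.50 and 0.29. Cd14, Cd33 and Cd34 were read on no myeloid array.

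The neutrophil and monocyte granule genes had a median difference of -1.11 over 6 tested, and 0 of them passed the test with all arrays. Mpo, the peroxidase of the primary granules, had 2.32, 1.86, 1.48 and 2.46 in M0 and -1.57, -1.42 and 1.14 in J365, without overlap. Its difference was -2.65 ± 0.78, with an adjusted p of 0.131, and 0.0102 without D replicate 3. J365 replicate 4 stood above the other J365 arrays, and without it the difference was -3.52 (adjusted p 0.0337). Within the slides it was -3.74, -0.84 and -3.43, and the slide with -0.84 holds both arrays called replicate 4.

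Ms4a3, a membrane protein of granulocyte and monocyte progenitors, had 4.63, 4.46, 4.21 and 4.03 in M0 and 2.79, 2.66 and 2.93 in J365. Every J365 array was below every M0 array, by -1.54 ± 0.46 on average, with an adjusted p of 0.149, and 6.63e-05 without D replicate 3. Ngp, a neutrophil granule protein, had -1.19, -1.23, -1.34 and -1.72 in M0 and -4.31, -4.49 and -3.97 in J365, where it was read on 1 array. Its difference was -2.89 ± 0.88, with an adjusted p of 0.152, and 0.000266 without D replicate 3. With normexp background correction it was -1.24 (adjusted p 0.0774). On D replicate 3 Ngp had -0.52, which was above every myeloid array. Elane (neutrophil elastase), Prtn3 (proteinase 3) and Lyz1 (lysozyme) differed by 0.08, -0.68 and -0.19 and were not called. Ctsg (cathepsin G), Lyz2 and Camp were read on some myeloid arrays and Ltf (lactoferrin) on none, and they could not be tested.

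F13a1 was the gene with the largest difference between M0 and J365 of the 39 tested. It had 5.79, 5.47, 5.28 and 3.86 on M0 replicates 1 to 4, with a mean of 5.10 ± 0.85 (SD, n = 4), and -1.23, -1.24 and -3.75 on J365 replicates 1, 3 and 4, with a mean of -2.07 ± 1.45 (SD, n = 3). The lowest M0 array was above the highest J365 array by more than the range of either line. Replicate 4 was the lowest array in both lines. The difference was -7.17 ± 0.48 (SE), with an adjusted p of 3.37e-09 by limma, and -7.03, -8.32 and -6.70 within the slides. Without J365 replicate 4 it was -6.33 (adjusted p 1.88e-09). A second F13a1 probe, read on 4 of the 7 myeloid arrays, differed by -5.48. By the probe used, F13a1 was read on every myeloid array and on no melanoma array, where it had -6.85 to -5.82. The second probe was read on 2 melanoma arrays.

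The granule genes of mast cells and basophils did not separate M0 from J365 with all arrays, and they followed the arrays called replicate 4. Cpa3, the mast cell carboxypeptidase, had -5.38, -5.81, -6.52 and -3.76 in M0 and -3.74, -4.02 and -1.75 in J365. It was read on every J365 array and on 1 M0 array, which overlapped with J365. The difference was 2.20 ± 0.58, with an adjusted p of 0.0716, of 0.0220 without D replicate 3 and of 0.00611 without M0 replicate 4. Without J365 replicate 4 the difference was 1.49 (adjusted p 0.562). With normexp background correction it was 0.57 (adjusted p 0.0724). Mcpt8, a basophil protease, had -6.11, -6.08, -6.33 and -3.80 in M0 and -6.21, -6.31 and -3.80 in J365, and, read in each line only on replicate 4, could not be tested. Hdc, the enzyme that makes histamine, had -1.36, -1.54, -1.87 and 0.42 in M0 and -1.34, -1.62 and -0.45 in J365, a difference of -0.05 ± 0.61.

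Mcpt8, Cpa3, Hdc and Ms4a2 all had their highest signal of each myeloid line on the array called replicate 4. Of the 36 lineage genes read on all 7 myeloid arrays, 5 were higher on that array than on every other array of its line in both lines, Fcgr1, Ms4a2, Mpo, Hdc and Cd200r3. In both lines 16 were lowest on it, Spi1, Cebpe, Runx1, Gata2, Il3ra, Tyrobp, Ptprc, Itgb2, Cd68, Adgre1, Laptm5, Lcp1, Prtn3, Lyz1, F13a1 and Cd200r1. The shares over all genes were not taken, so these counts cannot be read as particular to the lineage genes. The 2 arrays lie on the same slide, which also holds M0 replicate 3 and D replicate 3. M0 replicate 3 had the lowest M0 signal of Mcpt8, Cpa3, Hdc and Ms4a2. Whether slide, culture or RNA plays a part in these values was not tested.

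The CD200 receptors had a median difference of 0.87 over 4 genes tested, 1 of which was called. Cd200r2 had -4.36, -4.70, -4.82 and -6.41 on M0 replicates 1 to 4, where it was not well above background on any array, and 0.30, 0.30 and 0.65 on J365 replicates 1, 3 and 4. The lines were separate, and J365 was higher by at least 22.7-fold, counting each M0 array at no less than the dimmest probe read there. Cd200r2 entered the test through J365 alone, so its call and p-value are a description. The fitted difference was 5.49 ± 0.82, with an adjusted p of 0.000322 by limma, and within the slides it was between 4.66 and 6.27. With normexp background correction, which lifts dim signals, it was 2.80 and still called. D replicate 3 was the other array that read Cd200r2, at -1.37, and without that array the adjusted p was 1.49e-09.

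Cd200r1, the inhibitory receptor for CD200, had 0.76, 0.76, 0.74 and 0.06 in M0 and 0.93, 1.24 and 0.53 in J365, and the lines overlapped. Its difference was 0.32 ± 0.38, with an adjusted p of 0.985. Cd200r4 had -2.34, -2.34, -2.15 and -2.36 in M0 and -1.40, -1.40 and -1.22 in J365, without overlap. Its difference was 0.95 ± 0.41, with an adjusted p of 0.480, and 0.00450 without D replicate 3. Cd200r3 had -3.00, -3.33, -3.27 and -1.83 in M0 and -3.06, -2.77 and -0.39 in J365, a difference of 0.79 ± 0.58 that was not called, and within the slides it was 0.24, 2.16 and 0.27. Cd200, the ligand itself, was read on no myeloid array.

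**Figure D3:**
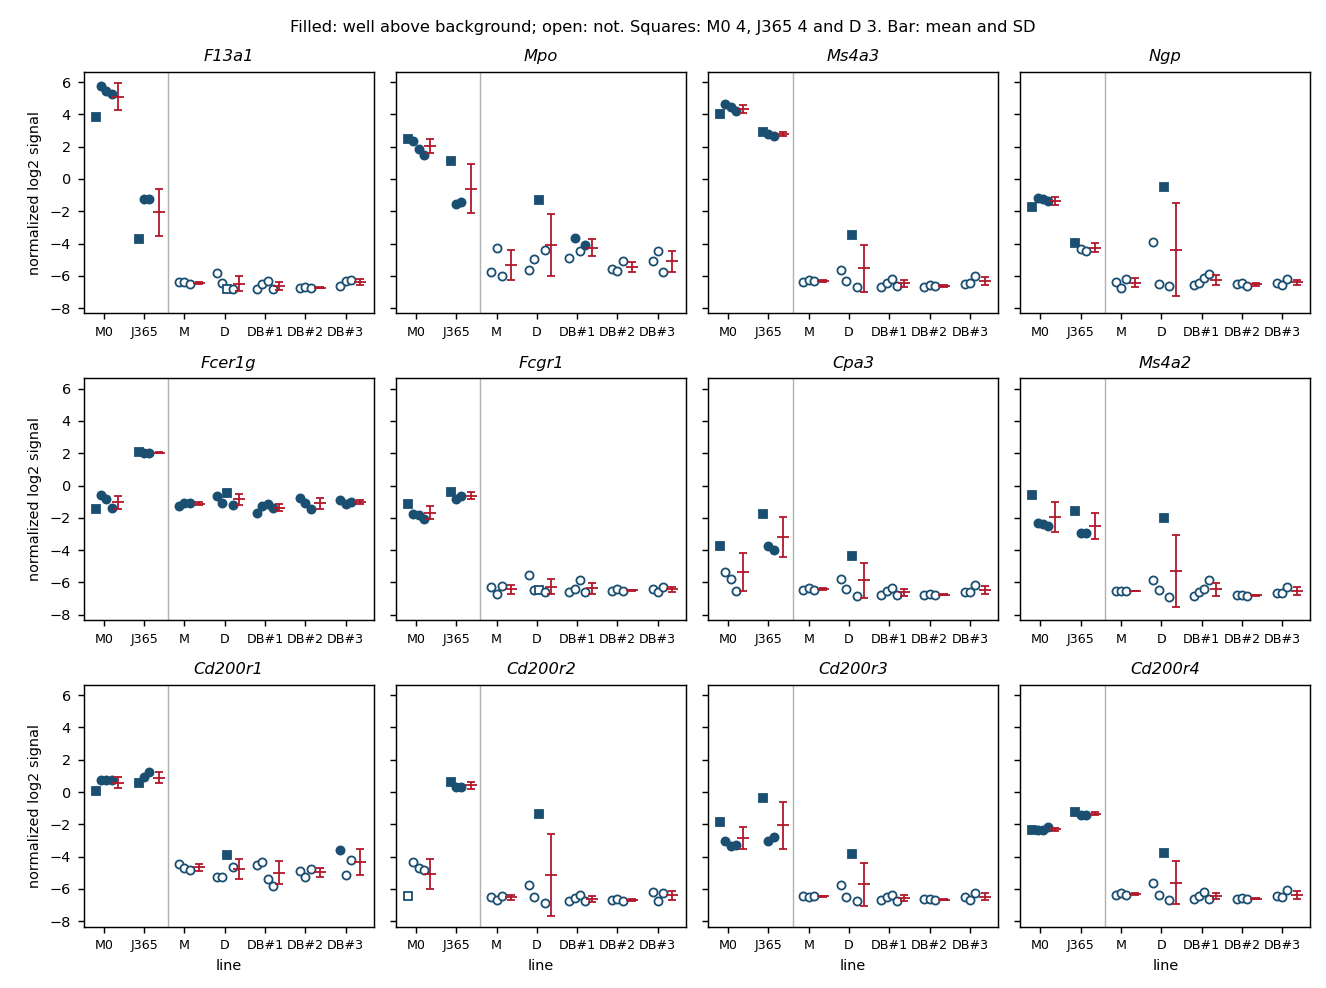
Normalized log2 signal (vertical axis) of 12 lineage genes on every array, by line (horizontal axis), filled where the probe was well above background and open where it was not, with the mean and SD of each line in red. Squares mark M0 replicate 4, J365 replicate 4 and D replicate 3. F13a1, Fcer1g, Fcgr1, Mpo, Cd200r2, Cd200r4, Ms4a3 and Ngp keep M0 and J365 apart on every array. In Fcgr1, Mpo, Cpa3, Ms4a2 and Cd200r3 the M0 and J365 squares lie above the circles of their line.

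Other genes of these pathways were taken from lists written for them. Of 19 other mast cell and basophil genes tested 2 were called, both higher in J365. Il1rl1, the receptor for interleukin-33 on mast cells, was read on no M0 array (-6.31 to -6.09) and on every J365 array (-0.78 to 1.35), at least 16.3-fold higher (adjusted p 2.74e-07). It entered the test through J365 alone, so its call is a description. Mitf, a factor of mast cells and melanocytes, was 2.28-fold higher (adjusted p 0.0477). Cma1, a mast cell chymase, differed by 1.62 ± 0.62 and was not called (adjusted p 0.353). Of 16 genes of IgE receptor signalling 2 were called, both lower in J365: Plcg1, a phospholipase, fell by 1.08 on the log2 scale (adjusted p 0.00720), and the kinase Lck fell by 0.86 (adjusted p 0.000772). Of 17 genes of interleukin-3 and GM-CSF signalling, all read on every myeloid array, 0 were called, and their differences lay between -0.42 and 0.48. From a list of CD200, its adaptors, Cd47 and Sirpa, 4 genes were tested (Dok1, Dok2, Rasa1 and Cd47) and 0 were called.

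Some markers of eosinophils were lower in J365, as F13a1 was. Of the 9 eosinophil markers 5 were tested and 3 were called, all lower in J365: Prg2 (by -2.84, adjusted p 0.0238), Prg3 (by -2.63, adjusted p 0.0283) and Epx (by -2.23, adjusted p 0.0119), all of them proteins of the eosinophil granule. Prg3 entered the test through M0 alone, so its call is a description. The summed linear signal of the 9 markers, in units of the 75th percentile of the array, was 19.6 to 30.7 on the M0 arrays and 3.87 to 14.2 on the J365 arrays. Their part in the results for F13a1, and for Mpo, Ms4a3 and Ngp, which were called only without D replicate 3 or under other alternatives, was not tested. Of the lists for other cell types, 0 of 8 erythroid and megakaryocyte markers, 0 of 6 T, B and NK cell markers, 0 of 2 macrophage and dendritic cell markers, 0 of 3 melanocyte markers and 0 of 1 fibroblast and endothelial marker tested were called between M0 and J365.

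The melanoma lines served as the background for the lineage genes. With lines weighted equally, 37 of the 43 genes tested were higher in the myeloid lines and 4 were lower, and the median difference was 5.03 on the log2 scale, beside 0.13 over all genes. The background is wide, since 71.8% of all 23753 genes tested were called between these cell types, 38.5% as higher and 33.3% as lower in the myeloid lines. A gene entered the test if every array of 1 line read it, so a gene read in the myeloid lines alone had to differ, and the count is a description. Because the 5 melanoma lines have 1 origin, p-values here measure the spread between arrays.

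Several genes were read on all 7 myeloid arrays and, in melanoma, on D replicate 3 alone. For these the difference is given as a lower bound without D replicate 3, each melanoma array being counted at no less than the dimmest probe read there, a choice made after the data were seen. All 5 transcription factors tested were higher in the myeloid lines. Gata1, which had -2.74 on D replicate 3, was at least 932-fold higher without that array, and Cebpe at least 980-fold. Gata2 was 8.51 ± 0.14 (SE) higher on the log2 scale, although it was read on all 17 melanoma arrays, at -3.27 to -1.91. Runx1, also read on all 17, was 3.98 higher, and Spi1, read on 2 of the 17, was 5.03 higher by the fit. All 5 were called, with adjusted p-values of 6.83e-12 or smaller by limma, and for none of them did myeloid and melanoma arrays overlap.

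Of the cytokine receptors, 3 were higher and 2 lower in the myeloid lines. Il3ra was 2.19 ± 0.18 higher and was read on every melanoma array too. Csf2rb was 3.60 higher by the probe that was brightest on average. Its other 2 probes, read on every myeloid array and on 1 or 0 melanoma arrays, gave differences of 12.26 and 9.71, so the size of the Csf2rb difference depends on the probe. Csf3r was called with a difference of 0.38 ± 0.12 (adjusted p 0.00595), but at 6.44 to 7.39 on the myeloid and 6.06 to 6.68 on the melanoma arrays the groups overlapped. Csf1r differed by 0.26 ± 0.26 and was not called (adjusted p 0.379).

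Kit and Csf2ra ran the other way. Kit, which melanocytes need as well as mast cells, had -1.37 to 0.79 on the 17 melanoma arrays, all of which read it, and was at least 14.5-fold lower in the myeloid lines (adjusted p 6.17e-20). Every myeloid array lay below every melanoma array. Csf2ra lay between 0.18 and 1.24 in the melanoma lines and between -6.26 and -2.22 in M0 and J365, a difference of -4.95 ± 0.32 (adjusted p 1.65e-11). Cd14 (-0.89, adjusted p 0.0297) and Elane (-1.06, adjusted p 0.0116) were called lower as well, with overlapping arrays, and Cd14 was read on no myeloid array. Cd14 entered the test through DB#2 alone, the only line to read it on all of its arrays. Its mean was -3.04 in DB#2, -4.12 in M, -4.33 in D, -5.10 in DB#1 and -5.37 in DB#3. In M0 it was -5.08 and in J365 -5.49, so the Cd14 call is a description.

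The Fc receptors were all higher in the myeloid lines, 6 of 6 tested. Fcgr1 was read on no melanoma array and was at least 9.01-fold higher. D replicate 3 was the only melanoma array to read Tyrobp, Fcgr3, Fcgr2b or Ms4a2. Without it Tyrobp was at least 287-fold, Fcgr3 at least 77.8-fold, Fcgr2b at least 13.9-fold and Ms4a2 at least 4.19-fold higher (adjusted p 2.28e-12 or smaller by limma). Fcer1g was 1.59 ± 0.13 higher, the smallest difference of the group, with M0 within the melanoma range and J365 above it.

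Surface, signalling and cytoskeleton genes were called higher in 11 of 12 tested, the exception being Cd14. Vav1, an exchange factor of blood cell signalling, was at least 710-fold higher, Ptprc at least 210-fold and Adgre1 at least 40.0-fold, with no melanoma array reading them. A second Adgre1 probe, read on no myeloid array and on 1 melanoma array, differed by 0.94, so the Adgre1 result depends on the probe. Laptm5, a lysosomal protein of leukocytes, was read in melanoma on D replicate 3 alone and was at least 383-fold higher without it (adjusted p 2.47e-21). Fes, a kinase of myeloid cells, was 7.56, Was, the actin regulator of the Wiskott-Aldrich syndrome, 6.10, Coro1a 8.53, Lcp1 6.66 and Itgb2 5.79 higher, and these 5 were read on 13 to 17 of the melanoma arrays. Itgam was 1.29 and Cd68 1.82 higher, and both were read on every array.

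Granule genes were higher in the myeloid lines in 8 of 10 tested. F13a1, read on no melanoma array by the probe used, was at least 57.3-fold higher. That bound averages M0, with a mean of 5.10, and J365, with a mean of -2.07, so it describes neither line. The melanoma arrays were counted at a mean of -4.33. Ms4a3, Prtn3 and Hdc were read in melanoma on D replicate 3 alone, and without it they were at least 232-fold, 17.3-fold and 9.11-fold higher (adjusted p 4.62e-10 or smaller). A second Hdc probe, read on no myeloid array, differed by 0.22. Mpo, read on 3 of the 17 melanoma arrays, was 5.56 higher by the fit, and Lyz1, read on 10, was 2.78 higher. Ngp and Cpa3 were called higher too, but 5 and 4 of the 7 myeloid arrays read them. Camp, a cathelicidin precursor of neutrophils, differed by -0.15 and was not called (adjusted p 0.430). The 4 CD200 receptors were called higher. Cd200r1, read on 2 melanoma arrays, was 5.48 higher by the fit, and without D replicate 3, the only melanoma array to read them, Cd200r4 was at least 5.57-fold and Cd200r3 at least 3.56-fold higher. A second Cd200r3 probe, read on no myeloid array, differed by 0.11. Cd200r2 overlapped with melanoma since M0 did not read it and D replicate 3 did. With D replicate 3 left out 41 genes were called as before.

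**Figure D4:**
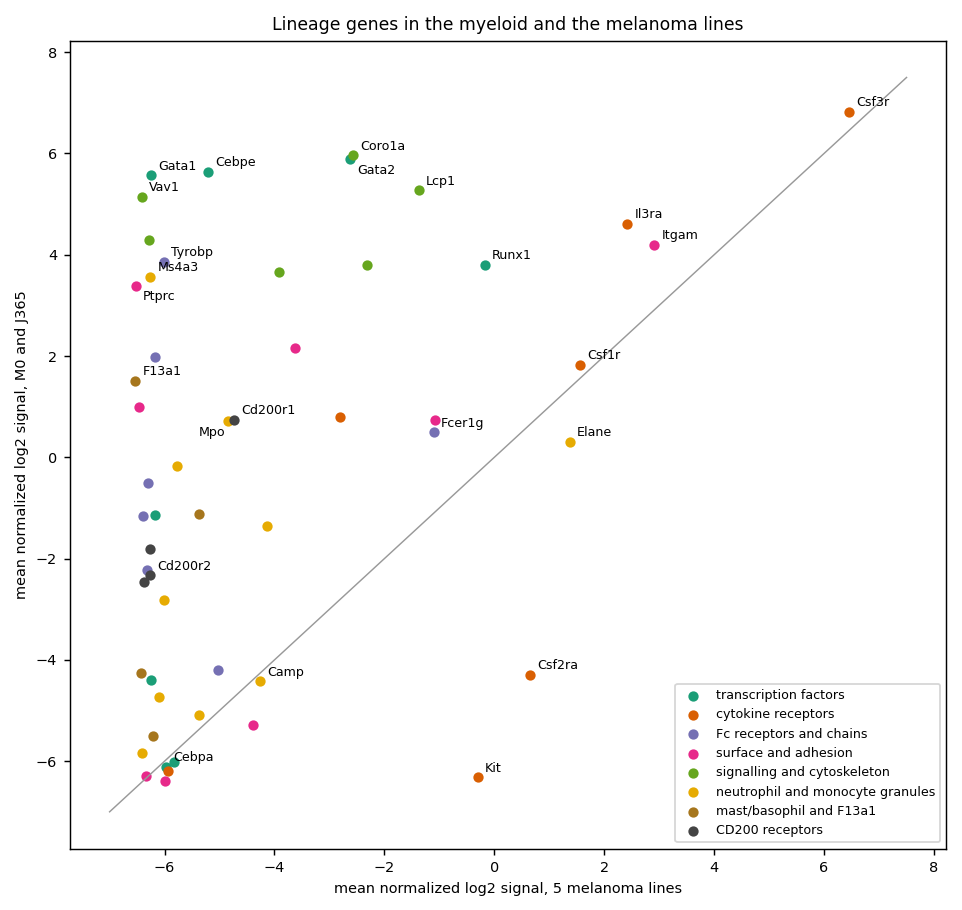
Mean normalized log2 signal of the 54 lineage genes in the myeloid lines (vertical axis, mean of M0 and J365) against that in the 5 melanoma lines (horizontal axis), each point a gene and each colour a role, with the line of equal signal. Most genes lie above the line, Csf3r and Csf1r lie near it, and Kit and Csf2ra lie farthest below it.

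Whether lineage genes read in the melanoma lines differed between these lines was asked with M as the common reference, so the comparisons share the M arrays. Of the 54 genes, 17 could be tested in D, 17 in DB#1, 20 in DB#2 and 18 in DB#3. Called genes numbered 1 in D (2.97% of all genes called), 4 in DB#1 (3.69%), 2 in DB#2 (3.44%) and 1 in DB#3 (2.76%), and 5 different genes were called at least once, beside 6.65% of all genes. They were Coro1a, Lcp1, Gata2, Kit and Il3ra. The background by direction was 1.38% higher and 1.59% lower in D, 2.05% higher and 1.65% lower in DB#1, 2.15% higher and 1.28% lower in DB#2, and 1.61% higher and 1.15% lower in DB#3. Without D replicate 3 the same 5 genes were called at least once, and the background was 3.16% in D, 4.75% in DB#1, 4.54% in DB#2 and 3.42% in DB#3.

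Lcp1, L-plastin, which bundles actin in blood cells, gave the calls that no left-out array removed. It had 0.80, -0.13 and 0.10 on the M arrays, -1.59, -2.48, -2.12 and -2.56 on the DB#1 arrays and -2.02, -2.65 and -3.02 on the DB#2 arrays. No DB#1 or DB#2 array reached the lowest M array. Lcp1 fell by 2.45 ± 0.46 in DB#1 (adjusted p 0.00195) and by 2.82 ± 0.49 in DB#2 (adjusted p 0.000941), and the other 2 Lcp1 probes had -2.96 and -2.85 as their DB#1 differences and -3.13 and -3.55 for DB#2. In D it had 0.79, -1.39, -1.61 and -1.70, with replicate 1 within the M range, a difference of -1.24 that was not called. In DB#3 it had -0.78, -2.06 and -1.40, a difference of -1.67 that was not called.

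Coro1a, coronin 1A, which regulates actin in leukocytes, had -1.56, -1.45 and -1.36 on the M arrays. It had -4.45, -3.25, -1.30 and -3.05 on D replicates 1 to 4, -2.88, -2.86, -3.48 and -3.40 in DB#1, -1.91, -2.21 and -2.08 in DB#2 and -3.33, -3.11 and -2.94 in DB#3. Every array of these lines lay below M except D replicate 3. Coro1a fell by 1.55 ± 0.42 in D (adjusted p 0.0464), by 1.70 ± 0.42 in DB#1 (adjusted p 0.0211) and by 1.67 ± 0.45 in DB#3 (adjusted p 0.0476), and its difference in DB#2, -0.61, was not called. Without D replicate 3 it fell by 2.12 in D (adjusted p 4.93e-05), and the adjusted p was 0.000150 in DB#1 and 0.000477 in DB#3. Coro1a was not read on D replicate 1, so it entered the D test through M alone and its call in D is a description. Without D replicate 1 it fell by 1.07 in D (adjusted p 0.0818).

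The Coro1a calls depended on single arrays and on the background correction, since with normexp the differences were -0.64 in D (adjusted p 0.0955), -0.92 in DB#1 (0.00631) and -0.85 in DB#3 (0.0266). In D the call was lost on leaving out any array of the 24 other than D replicate 3, with an adjusted p of up to 0.188, and in DB#3 on leaving out any array other than D replicate 1 or replicate 3, with an adjusted p of up to 0.205. With M and D arrays alone the adjusted p in D was 0.638. With no scaling between arrays it was 0.187 in D and 0.164 in DB#3, with no filter on dim probes 0.123 and 0.136, and 0.0967 and 0.0848 where the percentile was taken over detected probes. With the mean over all probes of a gene it was 0.0503 in DB#3. With the replicate number as a block it was 0.132 in D and 0.224 in DB#3, or 0.107 and 0.198 with the unnumbered myeloid arrays sharing a block. In DB#1 the call was lost without M replicate 1 (0.0623), 2 (0.0834) or 3 (0.100) and without DB#1 replicate 3 (0.0715) or 4 (0.0673). M and DB#1 arrays of the same number deviated together, and with the replicate number as a block the DB#1 call was lost too (adjusted p 0.0890, or 0.0694 with the unnumbered myeloid arrays sharing a block). The arrays numbered 3 lay on the same slide, and those numbered 1 or 2 did not. With slide as a block the Coro1a calls in D, DB#1 and DB#3 held.

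Gata2 had -2.62, -1.94 and -2.01 in M and -3.27, -3.20, -2.94 and -3.07 in DB#1, which did not overlap, and fell by 0.93 ± 0.23 (adjusted p 0.0215). With normexp background correction the difference was -0.41 (adjusted p 0.152). The call was lost without M replicate 2 (0.159) or 3 (0.141) and without DB#1 replicate 1 (0.0687) or 2 (0.0639), and it held with the replicate number as a block. Kit had -0.74, -0.89 and -0.48 in M and -0.18, 0.27, 0.79 and 0.04 in DB#1, and rose by 0.93 ± 0.21 (adjusted p 0.0127). The lines did not overlap in Kit, but the call was lost without M replicate 1 (0.0569) or 2 (0.0940) and without DB#1 replicate 3 (0.0523). Without scaling between arrays the DB#1 calls of Coro1a (0.117) and Gata2 (0.163) were lost, and so they were with no filter on dim probes (0.0618 and 0.0784). That of Gata2 was lost with the percentile over detected probes (0.0532), while that of Kit was lost with M and DB#1 arrays alone (0.0816). With the replicate number as a block the adjusted p for Kit was 0.0534, or 0.0390 with the unnumbered myeloid arrays sharing a block.

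Il3ra had 1.27 to 1.79 on the M arrays and 3.02, 3.24 and 2.75 in DB#2, and rose by 1.48 ± 0.33 (adjusted p 0.00991). The second Il3ra probe differed by 1.27. The call was lost without M replicate 2 (0.0670) or DB#2 replicate 2 (0.0657). The D arrays had 3.61, 2.61, 1.82 and 2.25, the DB#1 arrays 2.54, 2.15, 2.55 and 2.19 and the DB#3 arrays 2.78, 2.36 and 2.83, so all 14 arrays of the other melanoma lines lay above the highest M array. Without D replicate 3 Il3ra was also called in D (1.30, adjusted p 0.0145) and in DB#3 (1.13, adjusted p 0.0320), and Gata2 was called in D (-0.78, adjusted p 0.0168).

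**Figure D5:**
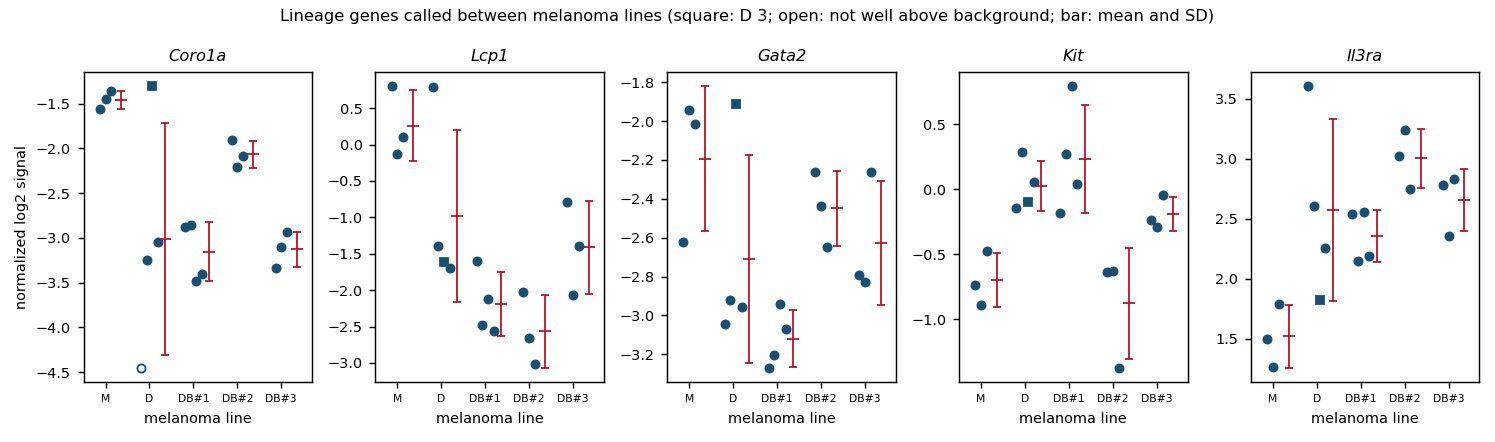
Normalized log2 signal (vertical axis, a separate scale for each gene) of the 5 lineage genes called between melanoma lines, on every melanoma array by line (horizontal axis), with the mean and SD of each line in red and D replicate 3 as a square. Coro1a and Lcp1 lie lower in DB#1 than in M, Kit lies higher in DB#1, Il3ra is lowest in M, and D replicate 3 lies above the other D arrays in Coro1a and Gata2.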

How the data were processed

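RNA of 7 mouse cell lines was labelled with Cy3 and hybridised on 24 single-colour Agilent arrays, 8 on each of 3 slides, and every slide held every line. Per the file headers, the authors' scanner output came from Agilent Feature Extraction (version 10.7.3.1, in the submitters' processing notes), and the deposited intensity used here is its background-subtracted, processed signal for each spot. The deposited values of the series table equal that intensity at all 1511424 values. Of 56605 non-control probes, 56488 were kept and 117 left out as outliers. Spots of a probe were averaged, log2 was taken, and each array's 75th percentile was subtracted. The files name mm9, so RefSeq tables of GRCm38.p6 gave gene names (32917 probes) and promoter sequences only. A gene is represented by its brightest probe on average, and 19 of the 54 genes have several. It was tested if well above background on every array of at least 1 line compared.

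limma 3.58.1 (R 4.3.3) was fitted to all 24 arrays with 1 term per line and 17 residual degrees of freedom, with eBayes over the genes tested and Benjamini-Hochberg adjustment within each comparison. The threshold for a call was an adjusted p of 0.05. The steps were tested on simulated data. The number of arrays limits the precision, and no 2 arrays held identical values. Groups came from sample titles, and the myeloid arrays without a replicate number are called replicate 4. M and DB#1 arrays of the same number deviated together (correlations over genes 0.65, 0.57 and 0.91), so the block on replicate number, whose source is the titles alone, is given beside DB#1 results that it changes. Of these pairs only the arrays numbered 3 (0.91) lay on the same slide. In other lines arrays of the same number did not always deviate together, as in M and DB#2 (0.85, -0.55 and -0.57). Whether number or slide plays a part in these correlations was not tested. The lineage genes and all other lists were chosen with earlier results of these data known. All lineage genes are named, and values by array were planned for those called between J365 and M0, for the CD200 receptors, Kit, Gata1, Gata2, Fcer1a, Ms4a2, Mcpt8 and Cpa3. Those for Mpo, Ms4a3, Ngp, Hdc, Coro1a, Lcp1 and Il3ra were added after their values were seen. From the other lists, genes called between J365 and M0 are named, and Cma1 was named after its value was seen. Alternatives were other scalings, normexp background correction (offset 50, on median signals because the mean signals planned for it were not in the columns used), no filter, all probes of a gene, slide or replicate blocks, the compared lines alone, and each array left out. Lower bounds of folds without D replicate 3 were added after the data were seen.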

Additional observations from a re-analysis of the deposited data

Results flagged for a closer look

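Among lineage genes measured above background, 65 sets of 4 arrays of a line were searched for an array far from the other 3 (Dixon's 95% critical value), and 8 held such an array, where chance gives about 1 in 20. The sets share arrays and the share over all genes was not taken, so the count cannot be read as particular to the lineage genes. In M0, replicate 4 stood apart in 4 genes. Ms4a2 was -0.61 on it against -2.52 to -2.30 on the other M0 arrays, Cd68 was 0.15 against 0.84 to 0.90, Lyz1 was -2.30 against -1.04 to -0.83, and Cd200r1 was 0.0602 against 0.74 to 0.76. M0 replicate 3 had -2.15 for Cd200r4, against -2.36 to -2.34. In D, replicate 3 had -1.91 for Gata2 against -3.04 to -2.92, and replicate 1 had 0.79 for Lcp1 against -1.70 to -1.39. DB#1 replicate 3 had -3.33 for Csf2rb, against -2.33 to -2.18. Its slide also held the lowest Csf2rb arrays of M (-3.69), D (-4.82 and -3.44), DB#2 (-3.62) and DB#3 (-3.93). Whether slide plays a part in this value was not tested.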

How the results depend on the processing

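The count of 4 genes called between J365 and M0 was 9 with quantile normalization and 7 with normexp background correction, 3 to 6 under the other alternatives, and 3 to 9 with an array left out, the 9 being without D replicate 3. F13a1, Fcer1g and Cd200r2 were called under every alternative run. The count of 41 between myeloid and melanoma lines was 39 to 43 under all alternatives and 40 to 42 with an array left out. The count of 5 between melanoma lines was 3 with no scaling between arrays, 3 with no filter on dim probes, 3 with the replicate block and unnumbered arrays apart, 4 with these sharing a block, and 1 to 6 with an array left out (1 without M replicate 2, 3 without M replicate 1 or 3). The cause of these moves was not tested, except that no filter tests more genes. The 4 genes between J365 and M0 became 3 or 5 in the replicate block fits, but same-numbered M0 and J365 arrays correlated at -0.20 and 0.02, so those numbers do not pair them. Single-gene differences between J365 and M0, or called between melanoma lines, were recomputed 1598 times in all, and 90 of these lost and 20 gained a call. No called difference changed sign. The sign changed in 34, over 12 differences between J365 and M0 that were called in neither case, 0.79 or smaller in size, of Runx1, Gata1, Gata2, Fcgr3, Itgam, Cd68, Adgre1, Lcp1, Elane, Lyz1, Hdc and Cd200r3.

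Over all genes, the 303 called between J365 and M0 were 516 without D replicate 3, 499 with a slide block and 539 with quantile normalization. The 598 in D were 135 with the compared lines alone (69.6% of them higher, against 46.5%), 1083 with slide as a block, and 934 without D replicate 1. Without M replicate 1 they were 393, without M replicate 2 they were 359 and without M replicate 3 they were 337. The 765 in DB#1 were 1163 with slide as a block. The 720 in DB#2 were 1255 with no scaling (89.4% higher, against 62.6%, with the median of all genes at 0.25), 1113 with slide as a block and 452 without M replicate 2. Signal over background limits Cpa3, Mcpt8, Ngp, Fcer1a and Cd200r2, which some myeloid arrays did not read.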
